A study of Homo sapiens with 4 samples.

Results

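The 10 apolipoprotein genes APOA1, APOC3, APOA4, APOA5, APOA2, APOB, APOE, APOC1, APOC2 and APOH are described here by the open chromatin peaks around them. A window was drawn for each gene, the GENCODE 44 gene body on hg38 with 10 kb on either side, and every overlapping peak was taken. The 10 genes stand among 19962 protein-coding genes, and their windows held 71 peaks, which merged into 33 regions of 80551 in all.

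The data were 4 ATAC-seq libraries of HepG2, an established human cell line from a liver tumour, made by the Omni protocol from 50000 cells each. ATAC-seq cuts DNA with a transposase where chromatin is open. Control replicates 1 and 2 had received no tazemetostat, and the labels do not say whether they had received its solvent. For 48 h, tazemetostat replicates 1 and 2 had received 5 µM tazemetostat, an inhibitor of the histone methyltransferase EZH2. Tazemetostat-treated cells had been pretreated with DNase I to remove free DNA, and whether the control cells were is not given in the sources used here.

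Apolipoproteins are the protein parts of lipoprotein particles, which carry cholesterol and triglycerides in blood, and hepatocytes secrete most of them. APOB is the structural protein of very low and low density lipoproteins, and APOA1 and APOA2 are the main proteins of high density lipoproteins. APOE, the APOC proteins, APOA4 and APOA5 are exchangeable proteins that steer lipase activity and receptor uptake, and APOH is a phospholipid-binding plasma protein. The APOE and APOC genes on chromosome 19 share liver enhancers known as the hepatic control regions, a duplicated element downstream of APOC1 and of its pseudogene APOC1P1.

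The liver label was checked by promoter peaks, a promoter being the 1 kb before a gene's MANE start and the 100 bp after it. Of 8 hepatocyte genes, 6, among them TTR, SERPINA1, TF, AHSG and HNF4A, had a promoter peak in all 4 libraries, while ALB and FGB had none in any. KRT8 was the 1 of 4 epithelial genes with a peak in all 4, and EPCAM had a promoter peak in both controls (11.1 and 10.9) and in neither tazemetostat library. Of 5 haematopoietic and 5 endothelial or stromal genes, 4 each had none in any library, and CD14 and ACTA2 each had a single peak in a tazemetostat library.

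The libraries held 17191428 and 23800380 mapped tags in the controls and 19844503 and 26564400 with tazemetostat. They gave 26133 and 34768 control peaks and 55313 and 54157 tazemetostat peaks, and 4.32% and 5.69% of control tags and 11.5% and 9.81% of tazemetostat tags lay in peaks. The header's fragment length was 200 bp in both controls and 144 bp in both tazemetostat libraries. Mapped tags overlapped between the groups. The number of peaks, the share of tags in peaks and the fragment length did not, so these and the treatment cannot be told apart in what follows.

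The sequence that best shows how the chromosome 19 cluster is built is a pair of regions with a peak in all 4 libraries, the first downstream of APOC1 and the second upstream of APOC2. The stretches shown are 240 bases each of hg38, plus strand, at chr19:44924291-44924530 and chr19:44935886-44936125. Capitals mark the 27 bases at which the copies differ.
downstream of APOC1: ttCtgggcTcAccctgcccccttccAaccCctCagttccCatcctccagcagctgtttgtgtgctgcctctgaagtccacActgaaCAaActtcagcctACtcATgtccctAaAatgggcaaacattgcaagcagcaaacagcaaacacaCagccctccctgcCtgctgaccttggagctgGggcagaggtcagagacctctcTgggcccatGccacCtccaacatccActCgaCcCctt
upstream of APOC2: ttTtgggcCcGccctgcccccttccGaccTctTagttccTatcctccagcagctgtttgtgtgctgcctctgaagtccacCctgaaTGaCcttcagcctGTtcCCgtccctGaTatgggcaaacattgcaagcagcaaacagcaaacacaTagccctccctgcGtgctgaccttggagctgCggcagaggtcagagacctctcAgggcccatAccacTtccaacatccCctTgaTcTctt

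In a local alignment of the merged regions, 536 aligned bases were 89.4% identical, with 18 gap bases not counted. The alignment did not reach the ends of the second region, and the second copy lay 11608 bp along from the first. Local alignment of all pairs of member regions on a chromosome found 2 further pairs on chromosome 19 with at least 75% identity over at least 100 bases. The region before the APOC1 start matched the region 12555 bp along from it at 96.4% of 361 bases, and the region over an APOC1 exon matched the region in APOC1P1, 12084 bp along, at 90.0% of 289 bases. So 6 of the 9 chromosome 19 regions were members of copied pairs. The longest runs without a mismatch were 40, 67 and 31 bases in these 3 pairs, and how tags that align to both copies were kept is not given in the sources used here, so the split of tags between copies is uncertain. The other alike pairs joined 3 regions of the APOH window, each with a peak in 1 library, at 80.5% to 84.9% identity.

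RefSeq promoters on GRCh38.p14 were matched for 7 of the 10 genes (all but APOA1, APOC3 and APOB), with 10 entries, each equal to the hg38 bases at its coordinates. Shown are the 250 bases before the start for APOH, at chr17:66229416-66229665 on the minus strand, whose whole stretch lay under a peak in every library, and for APOC2, at chr19:44945801-44946050 on the plus strand, which had a peak only with tazemetostat. Capitals mark motif letters.
APOH promoter: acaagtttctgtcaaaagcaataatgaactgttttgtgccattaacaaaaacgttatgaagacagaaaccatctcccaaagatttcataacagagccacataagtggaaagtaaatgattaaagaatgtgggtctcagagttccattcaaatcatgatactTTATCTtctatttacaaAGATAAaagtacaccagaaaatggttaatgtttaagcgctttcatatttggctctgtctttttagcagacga
APOC2 promoter: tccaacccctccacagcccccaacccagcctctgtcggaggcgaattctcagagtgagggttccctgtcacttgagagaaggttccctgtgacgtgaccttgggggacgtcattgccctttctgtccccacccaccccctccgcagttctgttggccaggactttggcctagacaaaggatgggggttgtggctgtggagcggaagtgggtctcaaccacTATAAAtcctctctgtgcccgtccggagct

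The centres of 2 APOB intron regions and of the APOA2 promoter region, 250 bases of the hg38 plus strand each, are shown because the 2 regions with peaks in all 4 libraries had the largest changes among the members and the other was found only with tazemetostat. They lie at chr2:21043104-21043353 for the APOB region found in all libraries, chr2:21042117-21042366 for the APOB region found with tazemetostat, and chr1:161224215-161224464 for APOA2.
APOB intron, all libraries: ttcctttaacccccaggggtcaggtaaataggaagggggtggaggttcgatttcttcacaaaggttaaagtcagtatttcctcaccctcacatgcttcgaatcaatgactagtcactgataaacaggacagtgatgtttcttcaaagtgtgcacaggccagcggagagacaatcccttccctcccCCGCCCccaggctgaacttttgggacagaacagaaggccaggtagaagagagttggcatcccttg
APOB intron, tazemetostat: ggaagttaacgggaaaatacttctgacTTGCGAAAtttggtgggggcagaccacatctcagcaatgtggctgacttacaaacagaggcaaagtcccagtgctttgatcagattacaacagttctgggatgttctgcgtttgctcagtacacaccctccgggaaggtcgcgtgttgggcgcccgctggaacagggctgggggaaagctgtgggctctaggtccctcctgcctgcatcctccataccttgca
APOA2 promoter region: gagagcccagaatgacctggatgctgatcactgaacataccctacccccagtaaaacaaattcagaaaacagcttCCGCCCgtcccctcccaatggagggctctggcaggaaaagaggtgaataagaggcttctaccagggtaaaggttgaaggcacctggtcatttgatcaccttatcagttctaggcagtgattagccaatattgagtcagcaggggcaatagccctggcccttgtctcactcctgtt

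Letters were searched on both strands in the 250 central bases of each region and the 250 bases before each RefSeq start, so a window may share bases with a neighbouring match. The GATA letters AGATAA stood at both matches of the APOH promoter, and 9.17% of 35116 RefSeq promoter entries held them. The TATA letters TATAAA stood in the APOC2 promoter, against 10.7% of all entries. In region centres, the CEBP letters TTGCNNAA stood in 4 of 33 member regions against 11.5% of 78220 regions on the primary chromosomes, and the SP/KLF letters GGGCGG in 5 of 33 against 19.5%. The HNF4 letters CAAAGTCCA or CAAAGTTCA stood in 1 of 33 against 2.69%, and the FOXA letters TGTTTAC in 1 of 33 against 7.45%. AGATAA stood in 4 of 33 against 10.5% and TATAAA in 4 of 33 against 6.97%. The CTCF letters CCANNAGNNGGC (5.13% of all regions) were in none of these member windows. A match is only a match of letters.

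APOA1, APOA2, APOB and APOH, 4 of the 10, had a promoter peak in all 4 libraries, against 30.9% of 19016 protein-coding genes with a MANE start. At APOA1, APOB and APOH the peak lay over the start itself in all 4, and at APOA2 it lay upstream, with the merged region centred at -712 bp from the start. APOC2 was the 1 gene of 10 with a promoter peak in both tazemetostat libraries and neither control, against 5.65% of the coding genes. APOC3, APOA4, APOE and APOC1, 4 of 10, had no promoter peak in any library, against 43.6%. APOA5 had one in tazemetostat replicate 1 only. A peak list holds only what passed its limits, so a library without a peak has no value and is not at zero.

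The windows held 12 peaks in each control, and 25 and 22 peaks in tazemetostat replicates 1 and 2. The mean was 12 ± 0 in the controls and 23.5 ± 2.12 with tazemetostat (SD, n = 2 each), and the exact two-sided permutation p was 0.3333, the smallest that a comparison of 2 with 2 libraries can give. The members' share of each library's peaks was 0.0459% and 0.0345% in the controls and 0.0452% and 0.0406% with tazemetostat, so the groups overlapped in that share. The normalised tag count of a peak is its number of tags per 10000000 mapped tags. Summed over the windows it was 230 and 283 in the controls and 672 and 556 with tazemetostat, and the length covered by peaks was 4459 and 4904 bp against 10173 and 9566 bp. Per kb of peak the tag count was 51.6 and 57.6 in the controls and 66.0 and 58.1 with tazemetostat. Counted per 10000000 tags in peaks, the members took 5331, 4971, 5838 and 5665 in control 1, control 2, tazemetostat 1 and tazemetostat 2, a much smaller gap between groups than on the scale of mapped tags.

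Of the 33 regions, 7 had a peak in all 4 libraries, which is the class of 20.4% of all regions. A further 7 were found with tazemetostat alone, in both of its libraries, a class holding 13.7% of all regions, and 0 had the opposite pattern, which 0.449% of all regions had. Of the other 19, 12 had a peak in a single library, 9 of these in a tazemetostat library. The tazemetostat libraries held more peaks in all, and the share of all regions with this pattern is not given here. That count can therefore not be read as particular to the members. Regions found only with tazemetostat lay in the windows of APOA4, APOA5, APOC1, APOC2, APOB and APOH, 6 of 10 genes, against 32.5% of all coding gene windows, which differ in length.

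The 7 regions with 1 peak in each library were tested with limma on log2(normalised tag count + 1), fitted over all 15383 such regions with Benjamini-Hochberg adjustment. Of the 7, 4 were higher with tazemetostat, against 42.7% of all tested regions, and 0 were lower, against 0.247%. Of the 7, 0 were lower at an unadjusted p under 0.05 as well. edgeR with the header library sizes also called 4 higher and 0 lower. The median log2 change was 0.79 over the 7 and 0.70 over all tested regions, so each member change below is also placed against that general shift. When each library was centred on its median, limma called 0 of the 7 in either direction, with 0 at an unadjusted p under 0.05. edgeR with TMM factors and DESeq2 with its own size factors called 0 as well, with 1 (lower) and 0 at an unadjusted p under 0.05. How many of all tested regions were called in these settings is not given here. The loss of calls can therefore not be read as particular to the members. Leaving out tazemetostat replicate 1 or 2 left 0 calls, and leaving out control replicate 1 left 1.

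APOB had the largest change of the members, in an intron and not at its start. In the intron region at chr2:21042911-21043547, centred 844 bp into the gene, the tag count was 23.3 in control 1, 27.3 in control 2, 50.9 in tazemetostat 1 and 58.3 in tazemetostat 2. The groups did not overlap, and both tazemetostat libraries stood far above both controls. The region rose by a log2 change of 1.08 (SE 0.30, limma adjusted p = 0.0142), more than 86.8% of all tested regions. With median centring its log2 change was 0.32. The peaks were 384, 375, 479 and 636 bp long in the same order, and per kb of peak the tag count was 60.7, 72.8, 106 and 91.7, which again did not overlap.

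At the APOB start, in chr2:21043909-21044399, the tag counts were 20.4, 32.4, 34.8 and 31.2 in the same order of libraries. Control 2 lay inside the tazemetostat range and control 1 below it. The log2 change was 0.34 (SE 0.31, limma adjusted p = 0.322), above only 15.3% of tested regions, and it turned to -0.42 when libraries were centred on their medians. The ratio of the intron region to the start region, which no library scaling can alter, was 1.14 and 0.843 in the controls and 1.46 and 1.87 with tazemetostat (0.992 ± 0.212 against 1.67 ± 0.287, SD, n = 2 each). The groups did not overlap in this ratio, chosen after the values were seen, and its exact permutation p was 0.3333. A further APOB intron region, chr2:21042088-21042397, had 33.8 and 30.1 in tazemetostat replicates 1 and 2 and no peak in the controls. In an exon far inside the gene, at chr2:21002636-21003112, only control 1 had a peak, with 18.6.

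**Figure D1:**
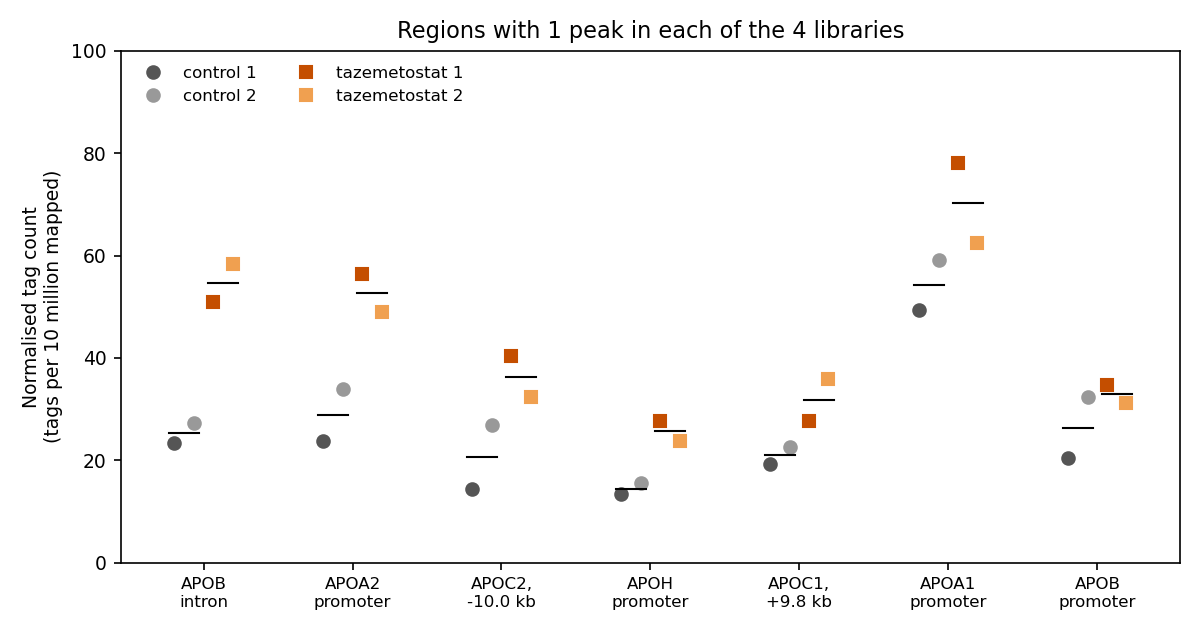
Normalised tag count (tags per 10000000 mapped) at the 7 regions with 1 peak in each of the 4 libraries, with circles for controls, squares for tazemetostat and short lines for group means of 2 libraries. The APOB intron shows the widest gap (23.3 and 27.3 against 50.9 and 58.3), and at the APOB promoter control 2 (32.4) stands above tazemetostat 2 (31.2).

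At APOA2 the region upstream of the start, chr1:161224061-161224619, had tag counts of 23.8, 34, 56.4 and 48.9. Both tazemetostat libraries were above both controls. It rose by a log2 change of 0.86 (SE 0.30, limma adjusted p = 0.0323), above 68.7% of tested regions, which was 0.10 with median centring. The RefSeq promoter stretch of APOA2, chr1:161223629-161223878, lay outside this region. Other peaks in the window belonged to neighbours. An intron of FCER1G, a subunit of an Fc receptor, had 12.8 in control 1 and 23.7 in tazemetostat 2, and the TOMM40L promoter had 21 in control 2 and 27.2 in tazemetostat 1.

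APOA1 had the strongest single region of the members. At its start, in chr11:116837447-116838129, the tag counts were 49.4, 59.2, 78.1 and 62.5, which put the peak above 98.0% to 98.9% of the peaks of its library. Both tazemetostat libraries were above both controls, by little in tazemetostat 2. The log2 change was 0.36 (SE 0.30, limma adjusted p = 0.281), above 16.5% of tested regions, and it turned to -0.40 with median centring. The ratio of the APOA2 region to the APOA1 region was 0.482 and 0.574 in the controls and 0.722 and 0.782 with tazemetostat. The groups did not overlap, again in a ratio chosen after the values were seen, with an exact permutation p of 0.3333.

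The APOA1, APOC3, APOA4 and APOA5 cluster spans 68.3 kb on chromosome 11 with its flanks. Its windows held 7 regions, with 3 peaks in control 1, 1 in control 2, 6 in tazemetostat 1 and 5 in tazemetostat 2. The summed tag counts were 76.1, 59.2, 175 and 139 in that order, and in control 2 the APOA1 start was the whole of it. APOC3 encodes an inhibitor of lipoprotein lipase. Its start lay in a stretch of 10222 bp without a peak in any library, between the APOA1 start region and chr11:116826771-116827225, which had 18.6 in control 1 and 32.8 in tazemetostat 2. The APOA4 start, likewise, lay in 9971 bp without a peak. On the far side of APOA4, chr11:116816391-116816800 had 8.14 in control 1, 13.6 in tazemetostat 1 and 8.28 in tazemetostat 2, so control 1 and tazemetostat 2 were nearly level. Next to it, chr11:116813911-116814499, at the promoter of the unnamed gene ENSG00000236267, had 19.7 and 17.7 in the tazemetostat libraries and no peak in the controls.

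APOA5 encodes an activator of triglyceride hydrolysis. Its window had no peak in either control. An intron region at chr11:116791212-116791706, centred 420 bp into the MANE transcript, had 24.7 in tazemetostat 1 and 18.1 in tazemetostat 2, and its promoter had 15.1 in tazemetostat 1. Beyond the APOA1 start, an intron of the antisense gene APOA1-AS had 24.2 in tazemetostat 1. ATAC-seq does not mark strand, so a peak in overlapping genes belongs to both.

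Between the APOA5 and APOA4 windows, outside both and so not counted among the 33, lay the strongest region of the chromosome 11 cluster in both tazemetostat libraries. At chr11:116808052-116809232 it had a single peak of 50.8 in control 2, 79.1 in tazemetostat 1 and 85.1 in tazemetostat 2, with lengths of 1150, 1102 and 1180 bp. In control 1 the same stretch was called as separate peaks of 29.7 and 11.1, of 532 and 385 bp, so the region was not tested. Both tazemetostat libraries stood above both controls. Its fold over local background reached 11.7 in control 1 and was 6.78, 9.62 and 5.35 in the others. Over the whole span, this region included, the summed tag counts were 117 and 110 in the controls and 255 and 224 with tazemetostat (113 ± 4.91 against 239 ± 21.2, SD, n = 2 each, exact permutation p = 0.3333).

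**Figure D2:**
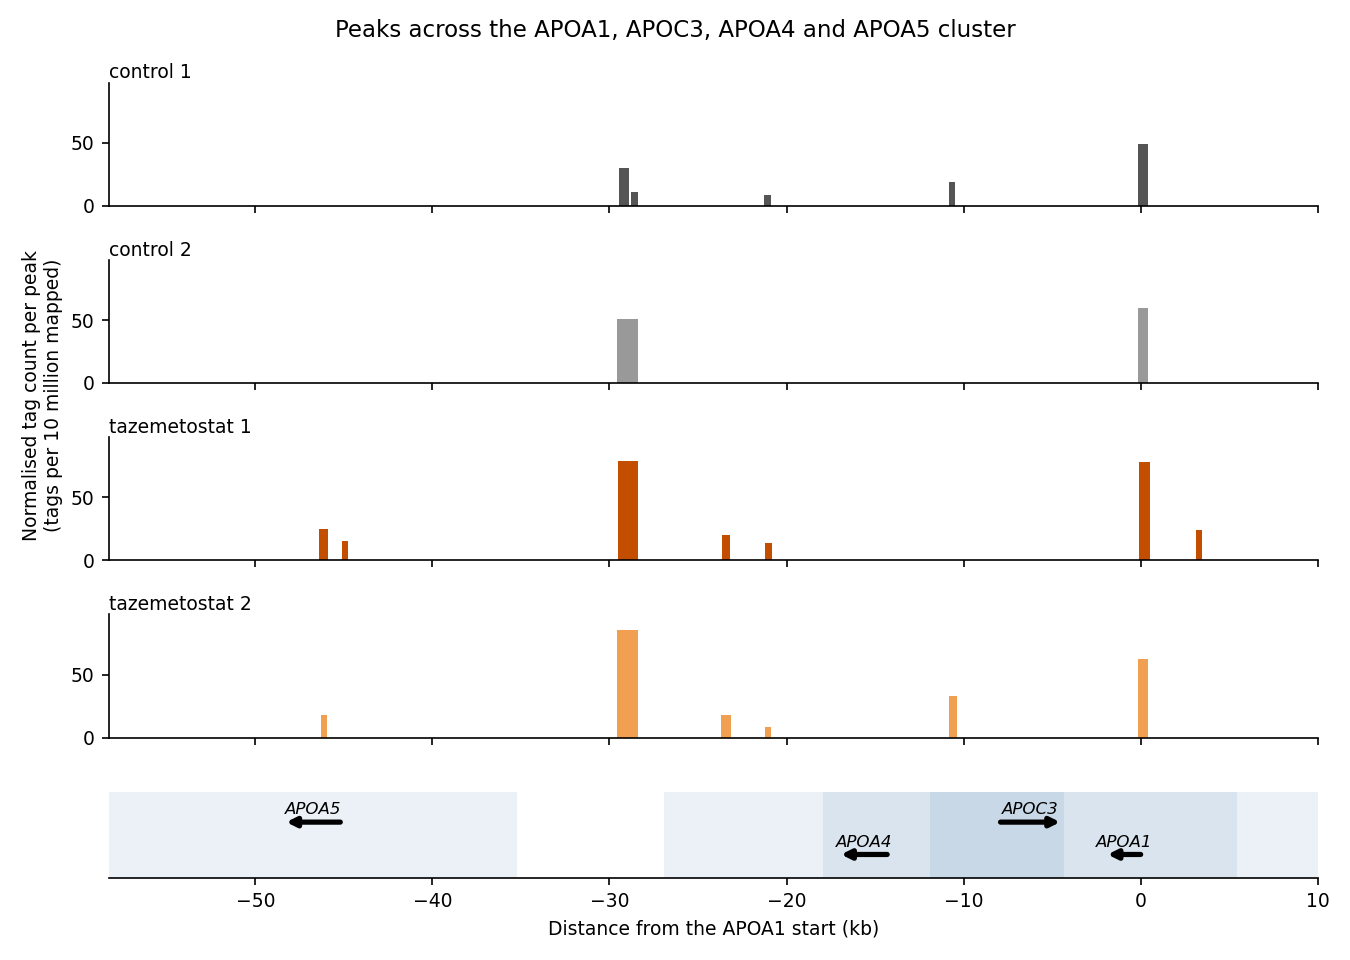
Peaks across the chromosome 11 cluster by distance from the APOA1 start in kb, with bar height the normalised tag count of each peak and shading the gene windows. The APOA1 start has a peak in every library (49.4 to 78.1), the unshaded gap holds the region with 79.1 and 85.1 in the tazemetostat libraries, and the APOA5 window has bars with tazemetostat only.

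The APOE, APOC1 and APOC2 cluster spans 63.8 kb on chromosome 19. Its windows held 9 regions, with 2 and 4 peaks in the controls and 9 and 7 with tazemetostat, and summed tag counts of 33.7 and 78.6 against 227 and 163 (56.2 ± 31.7 against 195 ± 44.9, SD, n = 2 each, exact permutation p = 0.3333). The controls differed from each other by more than at chromosome 11, and both lay below both tazemetostat libraries. APOE, the ligand of several lipoprotein receptors, had no peak in its gene body in any library.

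The copied regions printed above were the only ones of this cluster with a peak in all 4 libraries, and the only ones at all in control 1. The copy downstream of APOC1, chr19:44924130-44924680, centred 9797 bp past the APOC1 start, had 19.2, 22.7, 27.7 and 35.8. Both tazemetostat libraries were higher than both controls, with a log2 change of 0.57 (SE 0.30, limma adjusted p = 0.109), above 34.4% of tested regions, that turned to -0.19 with median centring. The copy at chr19:44935711-44936362, centred at -10015 bp from the APOC2 start, had 14.5, 26.9, 40.3 and 32.4. Control 2 lay nearer to tazemetostat 2 than to control 1, and the region rose by a log2 change of 0.84 (SE 0.32, limma adjusted p = 0.0436), above 66.0% of tested regions, which was 0.077 with median centring. Without control replicate 1 its log2 change was 0.41 (limma adjusted p = 0.323). The ratio of the second copy to the first was 0.755, 1.19, 1.45 and 0.905 in the 4 libraries. The groups overlapped in it (0.970 ± 0.304 against 1.18 ± 0.389, SD, n = 2 each, exact permutation p = 0.667). With 2 libraries per group this test cannot go below 0.3333, and the split of tags between copies is uncertain. The ratio therefore cannot decide whether the copies changed unequally.

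The other copied regions appeared mainly with tazemetostat. The region before APOC1, chr19:44912925-44913302, had 24.2 in tazemetostat 1 only, and its copy at chr19:44925364-44925840 had 31.7 and 28.6 in tazemetostat replicates 1 and 2 and no peak in the controls. The region over an APOC1 exon, chr19:44915026-44915407, had 22.7 in tazemetostat 1 only, and its copy in APOC1P1, chr19:44927049-44927408, had 13.9 in control 2, 19.1 in tazemetostat 1 and 17.3 in tazemetostat 2. In both pairs the copy nearer to APOC2 had peaks in more libraries. The tags were placed by the authors' alignment, and their part in this was not tested.

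APOC2 encodes the cofactor that lipoprotein lipase needs. At its start, printed above, chr19:44945789-44946248 had 11.6 and 13.6 in tazemetostat replicates 1 and 2 and no peak in the controls. These values lay above 39.8% and 53.3% of the peaks of their libraries. The fold over local background was 4.02 and 4.86, in tazemetostat 1 barely over the limit of 4. In an intron of ENSG00000267114, chr19:44951314-44951721 had 19.1 and 15.8 with tazemetostat only. The promoter of CLPTM1, a neighbour, had 15.1 in control 2, 30.2 in tazemetostat 1 and 19.6 in tazemetostat 2.

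**Figure D3:**
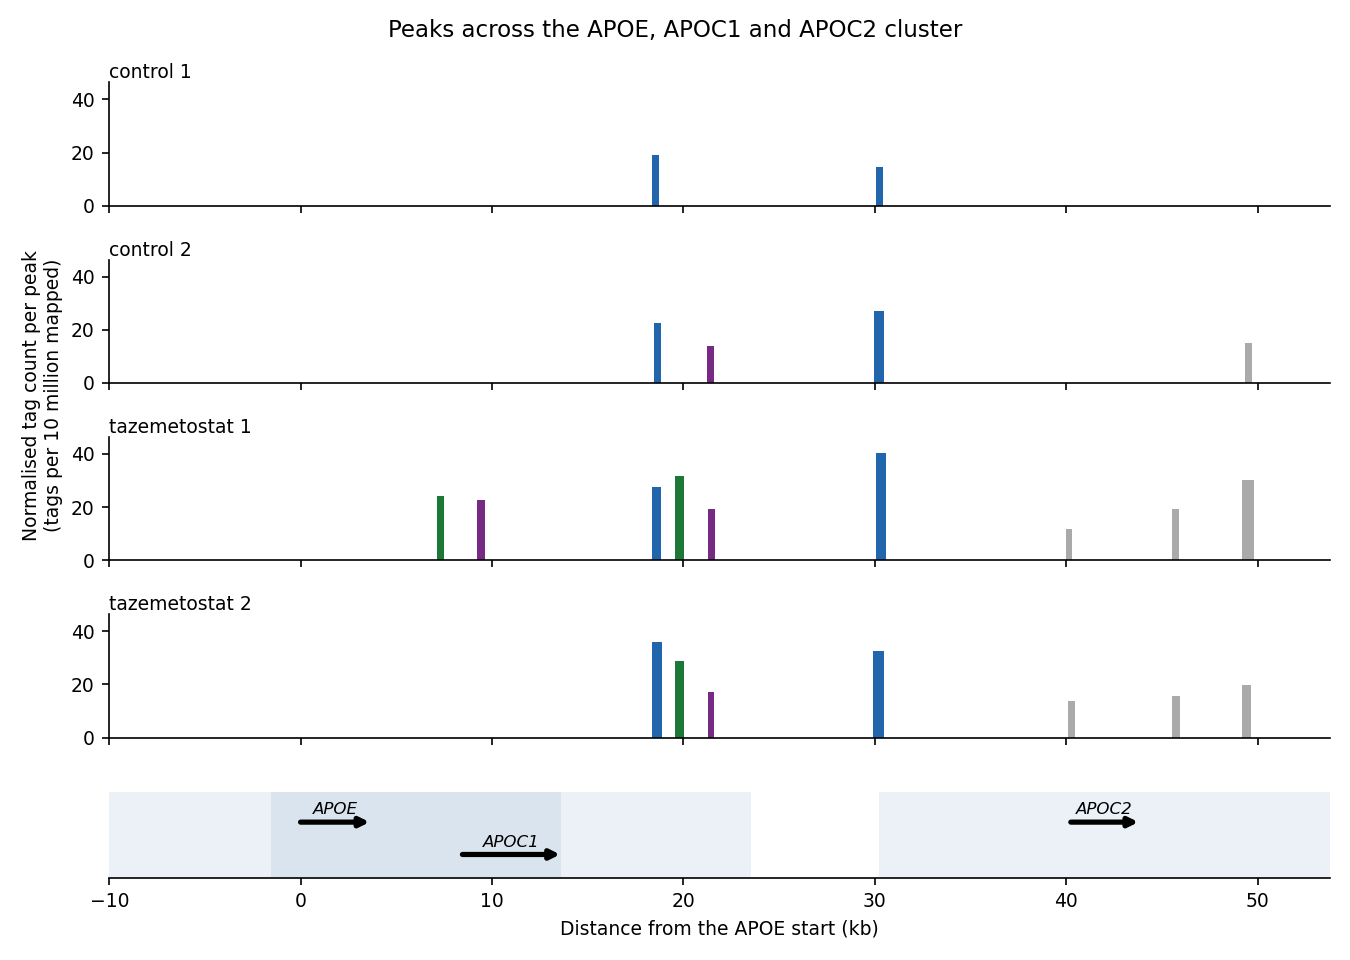
Peaks across the chromosome 19 cluster by distance from the APOE start in kb, with bar height the normalised tag count of each peak and shading the gene windows. Bars of the same colour other than grey are copies of each other, and the blue pair alone is present in all 4 libraries (14.5 to 40.3).

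APOH had the lowest tag counts of the 7 tested regions. At its start, in chr17:66229201-66229794, the tag counts were 13.4 and 15.5 in the controls and 27.7 and 23.7 with tazemetostat, and the groups did not overlap. The region rose by a log2 change of 0.79 (SE 0.30, limma adjusted p = 0.0397), above 60.5% of tested regions, and per kb of peak the limma adjusted p was 0.110. With median centring its log2 change was 0.028. An intron region of the long gene model, chr17:66233096-66233478, had 10.6 and 14.3 with tazemetostat only. Of the 10 regions in this window 7 were found in a single library, at tag counts from 6.4 to 9.57, above at most 33.5% of the peaks of their libraries (the lowest listed values were 6.4, 5.04, 5.04 and 4.89). One more had 7.98 in control 2 and 10.6 in tazemetostat 1.

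**Figure D4:**
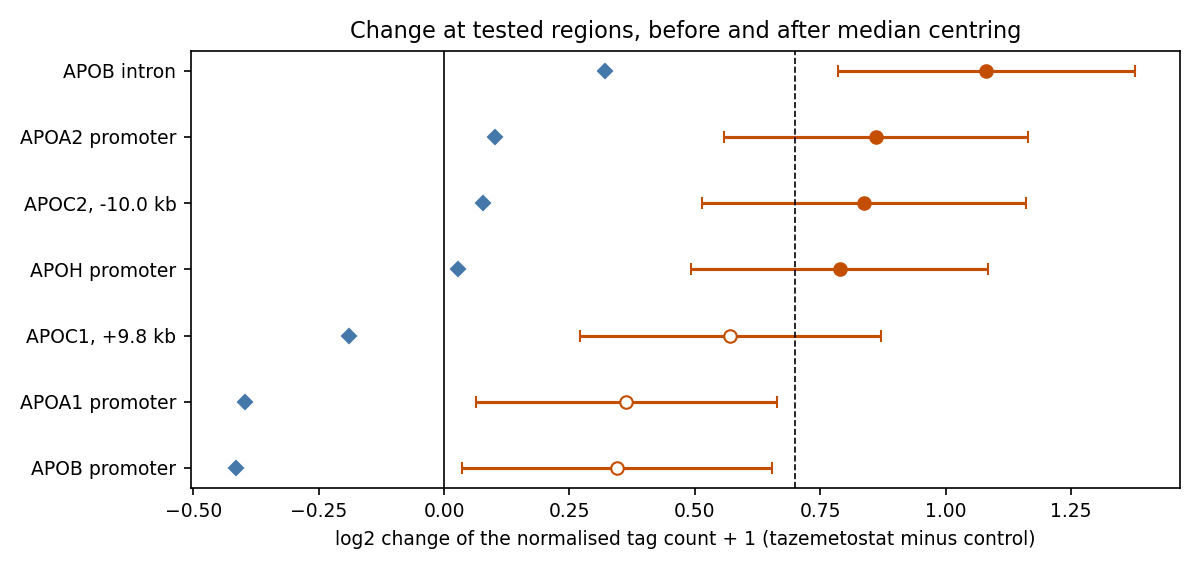
log2 change of the normalised tag count + 1, tazemetostat minus control, at the 7 tested regions. Orange points are the limma estimates with SE bars (filled where the adjusted p was under 0.05), blue diamonds the values after median centring, and the dashed line the median of all tested regions (0.70), which the APOA1 and APOB promoters (0.36 and 0.34) lie below and the APOB intron (1.08) lies above.

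The fold over local background compares a peak with the 10 kb around it and had to be at least 4. It was below 5 for 48 of the 71 member peaks (67.6%), against 33.9% of all peaks, and at least 8 for 2 (2.82%) against 29.1%. These were the copy before APOC2 in tazemetostat 1, with 14.1, and the APOH start in tazemetostat 1, with 9.34. The median tag count of the member peaks lay above 73.7% and 78.6% of the library's peaks in the controls and 72.6% and 73.0% with tazemetostat. APOH differed from this, with median folds of 7.295, 5.58, 6.4 and 6.28 and tag counts whose median lay above 36.6%, 25.5%, 35.2% and 33.5% of the library's peaks. A higher median fold in the controls was not particular to APOH. The chromosome 19 cluster had 6.33 and 5.505 in the controls and 4.72 and 4.82 with tazemetostat. By library, 58.3% and 58.3% of member peaks in the controls and 68.0% and 77.3% with tazemetostat were below 5.

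At the 7 tested regions the median fold was 5.02 and 5.14 in the controls and 4.83 and 4.88 with tazemetostat, a difference of -0.225 (exact permutation p = 0.3333, the smallest possible here) that turned to 0.278 when gene bodies were taken without flanks. Over all tested regions it was 6.96 and 6.1 against 6.89 and 6.16. The median peak length was 377 and 475 bp against 530 and 550 bp, with 409 and 502 against 579 and 585 bp over all tested regions. At the APOB intron the fold was 4.16, 4.2, 4.43 and 4.01, nearly level across libraries whose tag counts ran from 23.3 to 58.3. The share of putative peaks that the local filter removed was 77.0% and 80.0% in the controls and 62.7% and 70.9% with tazemetostat, and its part in the counts of peaks was not tested.

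**Figure D5:**
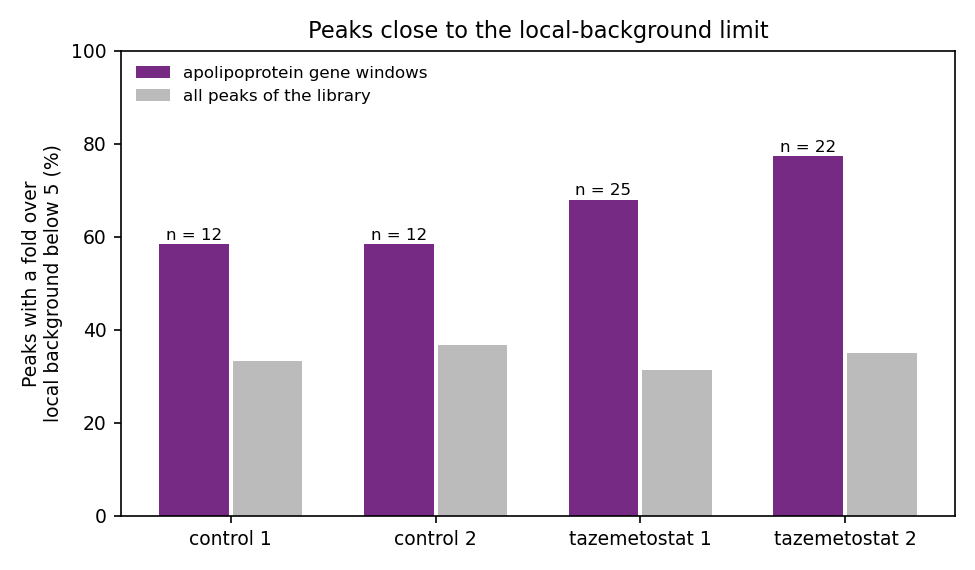
Share of peaks with a fold over local background below 5, in %, for the member windows (purple, with the number of peaks) and for all peaks of the library (grey). The member share is higher in every library, from 58.3% against 33.3% in control 1 to 77.3% against 35.1% in tazemetostat 2.

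The wider lipoprotein pathway was read from 38 other genes in 6 roles, with some windows overlapping the members' (APOC4 lies beside APOC2). Their 197 regions held 51 with peaks in all 4 libraries, 28 found only with tazemetostat and 0 found only in the controls, classes that hold 20.4%, 13.7% and 0.449% of all regions. Of 49 tested regions 22 rose and 0 fell by limma, against 42.7% and 0.247% of all tested regions, with 0 lower at an unadjusted p under 0.05. Their median log2 change was 0.73, against 0.70 over all tested regions, so the pathway's share of calls lay near the background. edgeR with header library sizes called 23 higher and 0 lower, and with TMM factors 0 higher and 1 lower. DESeq2 called 0 in either direction, with 1 lower at an unadjusted p under 0.05, and limma with median centring called 0, with 3 lower. The share of all tested regions called in these settings is not given here.

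By role, 3 of 6 tested regions rose at other apolipoproteins and proteins of high density lipoproteins, 4 of 9 at assembly and secretion genes, 4 of 13 at receptors, 4 of 7 at lipid transporters, 4 of 7 at lipases and remodelling enzymes, and 3 of 7 at regulators, each to be read against the 42.7% of all tested regions. The largest rises were at intronic regions in the windows of ANGPTL4, an inhibitor of lipoprotein lipase, and SORT1, a sorting receptor. The ANGPTL4 window region had 11.1, 19.3, 37.3 and 38 (log2 change 1.30, SE 0.31, limma adjusted p = 0.0101). The SORT1 window region had 36.1, 26.1, 75.1 and 73.8 (log2 change 1.25, SE 0.30, limma adjusted p = 0.00999). At both regions, the tazemetostat libraries were far above the controls. A window takes in 10 kb of flank on either side, so these introns may belong to neighbouring genes. The lowest changes did not pass. They were -0.52 at an intronic region in the window of LMF1, a lipase maturation factor (limma adjusted p = 0.134), and -0.094 near SAA4 (limma adjusted p = 0.777). The intron in the LMF1 window may likewise belong to a neighbouring gene.

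Promoter peaks in all 4 libraries were found at 10 of the 38 genes, against 30.9% of coding genes. The promoters of 2 genes, the receptors VLDLR and SCARB1, had a peak in both tazemetostat libraries and neither control, against 5.65%, and 13 genes had none in any library, against 43.6%. GPIHBP1, the capillary anchor of lipoprotein lipase, had no peak in its window in any library. The genes whose summed windows came nearest to the members' summed profile over the 4 libraries were PLEKHM3, TRAPPC9 and AOPEP, at Euclidean distances of 0.282, 0.312 and 0.330 on log2(summed tag count + 1). PLEKHM3 had 269 and 308 in the controls and 634 and 526 with tazemetostat.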

How the data were processed

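ATAC-seq was done on 2 control and 2 tazemetostat-treated samples. Groups and replicate numbers came from the sample titles. The labels do not say that samples were separate cultures, so p-values measure only the spread between these samples. limma also draws each region's variance towards the spread at all tested regions, so its p-values rest on more than that region's own values. Some genes of the lists are not reported by name here. Members and gene lists were chosen with earlier results of these data known. Named were all member regions, and from the pathway list the 2 largest rises and falls, promoters with a peak in both libraries of 1 group and neither of the other, and genes without a peak.

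Per the submitters' processing notes and the methods, Trim Galore 0.6.6 was used on the reads, Bowtie2 2.3.5.1 for alignment to hg38 and HOMER 4.11.1 for peaks, which the authors called library by library. Per the file headers, each deposited list gives a normalised tag count (a signal, per 10000000 mapped tags), a findPeaks score held as a whole-number count, a fold ratio over the local 10 kb and its p-value. The limits were a local fold of 4 and a local p-value of 0.0001. The headers give an FDR of 0.001 and the methods 0.05. At most 1 tag per position was counted. Whether cut sites were shifted is not given in the sources used here.

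Peaks overlapping by at least 1 bp were merged. Regions with 1 peak in each library were tested with limma 3.58.1 (pseudocount 1, adjusted p threshold 0.05). edgeR 4.0.16 and DESeq2 1.42.0 used tags recovered from the tag counts, of which 100% lay within 0.25 of a whole tag. Single values were compared by exact two-sided permutation. The code was tested on simulated data. Alignments used Biopython, and gene models GENCODE 44. Lists hold only peaks that passed, so the regions tested are those found in every library. Depth limits precision, and intervals from tags would cover counting error only. Alternatives were scaling, tool, length, pseudocount, low-value filter, overlap, local fold, equal peak numbers, window and leaving out each library.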

Additional observations from a re-analysis of the deposited data

How the results depend on the processing

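All 4 limma calls in member regions were lost under median centring, edgeR with TMM factors and DESeq2 (0 each). Same-numbered libraries did not deviate together (correlation -0.0025 over 15383 regions). The labels do not say whether they were paired, and this correlation cannot decide it. With the replicate number as a block, 2 of the 4 calls were left. Leaving out 1 library left 0 to 4. In the pathway 22 of 49 tested regions were called higher. Of the same 49, 0 were called higher under those 3 scalings, 11 per kb of peak and 15 with the block. With a library left out, 0 to 28 of the 49 were called higher. With a local fold of at least 8 only 6 pathway regions could be tested, and 2 of these were called higher. In the pathway edgeR with TMM factors called 1 lower. With median centring, edgeR with TMM factors and DESeq2 in turn, the log2 change turned to -0.42, -0.40 and -0.39 at the APOB promoter, -0.40, -0.36 and -0.35 at the APOA1 promoter, and -0.19, -0.095 and -0.097 at chr19:44924130-44924680. Of the 33 member regions 7 were found only with tazemetostat, and in gene bodies without flanks 4 of 13 were. With a local fold of at least 8 only 2 member regions were left, and 0 of these were found only with tazemetostat. With a library left out, a region has fewer libraries to match, so the rule for this class is looser. The number was then 8 to 13 (13 of 30 without tazemetostat replicate 2), and regions found only in controls numbered 0 to 2. The median fold difference of -0.225 turned to 0.278 in gene bodies without flanks. With a local fold of at least 8 no member region could be tested for tag count, fold or length. The shares of all regions called or classed alike in these settings are not given here. So the changes in counts cannot be read as particular to the members or the pathway. Beyond the looser class rule with a library left out, the cause of these changes was not tested. Differences in peaks, summed tag count and peak length kept their direction under every alternative run. Depth limits the weakest peaks, whose absence from a list is no zero.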
